A study of Mus musculus with 28 samples.

Results

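The 6 genes described here act in the survival and migration of primordial germ cells (PGCs), the founder cells of the mouse germ line: Nanos3, Dnd1, Kit, Kitl, Cxcr4 and Cxcl12. They were chosen by symbol from the deposited expression table, in which each of the 6 has a row among 53564 gene rows. The table came from RNA sequencing of C57BL6 mouse cells, and levels are in TPM, a share of all transcripts that is scaled for gene length and adds up to 1000000 in each library, so that levels can also be compared between genes. Embryonic stem cell (ESC) lines of 3 kinds were taken towards the germ line: a wild-type line labelled LT, a line from the generation 4 knockout of Terc, the RNA template of telomerase, labelled ST, and a Terc-rescued line labelled RT. The cells were first made into epiblast-like cells over 2 days in bFGF, activin A and serum replacement, and then induced with BMP4, SCF, EGF and LIF. The libraries labelled 1dEB are embryoid bodies after 1 day of that induction. The libraries labelled 1dMeioLC are meiocyte-like cells. They came from PGC-like cells of each line, made by 4 days of the same induction. These were cultured for 1 day with GFP-marked gonadal somatic cells of female E12.5 mice in 3 µM retinoic acid. The cells without GFP were then sorted. The embryo gave PGCs of day E10.5, sorted from gonads for integrin β3 and SSEA1 (E10.5PGC), and the same kind of PGCs after the 1-day culture (PGC-1dMeioLC). Each of these 8 groups has 2 libraries. The labels do not say whether the 2 came from separate cultures or animals, nor how many clones stand for a line, so p-values measure only the spread between these libraries.

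Nanos3 and Dnd1 are RNA-binding proteins of germ cells. NANOS3 recruits the CCR4-NOT deadenylase to mRNAs and protects migrating PGCs from apoptosis, and DND1 binds mRNAs and works with NANOS proteins, so that loss of either gene empties the mouse gonad of germ cells. Kit is the receptor tyrosine kinase on PGCs, and Kitl is its ligand, also called SCF or steel factor, made by the somatic cells along the migration path and in the gonad; it keeps PGCs alive, dividing and motile. Cxcr4 is the chemokine receptor by which PGCs reach the gonad, and Cxcl12 is its ligand, secreted by somatic cells of the genital ridge and the surrounding mesenchyme. SCF protein was also an ingredient of the induction medium, so the Kitl transcript is the message of the cells only.

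In the GENCODE M21 annotation of the mm10 genome, Nanos3 lies on chromosome 8 from 84173731 to 84185217 on the minus strand and holds the microRNA genes Mir181c and Mir181d on the same strand. Kit lies on chromosome 5 from 75574916 to 75656722, Kitl on chromosome 10 from 100015630 to 100100416 and Cxcl12 on chromosome 6 from 117168535 to 117181367, all on the plus strand. Cxcr4 lies on chromosome 1 from 128588199 to 128592293 on the minus strand. The promoters of the members whose levels moved most between stages are shown as the 250 bases before the RefSeq start of the gene (build GRCm38.p6), and RefSeq promoter sequences were matched for 5 of the 6 members. For Nanos3, Kit and Kitl the RefSeq start lies inside the GENCODE span given above. Their windows therefore overlap that span, in part for Kit and Kitl and wholly for Nanos3.
Nanos3, chr8:84176553-84176802, minus strand: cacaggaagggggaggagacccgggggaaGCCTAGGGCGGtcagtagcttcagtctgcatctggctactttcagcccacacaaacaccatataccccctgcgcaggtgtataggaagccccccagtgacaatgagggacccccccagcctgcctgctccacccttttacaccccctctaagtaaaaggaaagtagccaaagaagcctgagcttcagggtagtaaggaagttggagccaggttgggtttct
Kit, chr5:75574737-75574986, plus strand: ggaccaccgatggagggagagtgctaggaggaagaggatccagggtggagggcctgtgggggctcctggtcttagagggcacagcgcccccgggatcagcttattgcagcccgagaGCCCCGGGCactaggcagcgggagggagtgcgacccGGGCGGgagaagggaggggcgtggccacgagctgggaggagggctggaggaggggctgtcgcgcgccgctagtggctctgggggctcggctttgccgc
Kitl, chr10:100015571-100015820, plus strand: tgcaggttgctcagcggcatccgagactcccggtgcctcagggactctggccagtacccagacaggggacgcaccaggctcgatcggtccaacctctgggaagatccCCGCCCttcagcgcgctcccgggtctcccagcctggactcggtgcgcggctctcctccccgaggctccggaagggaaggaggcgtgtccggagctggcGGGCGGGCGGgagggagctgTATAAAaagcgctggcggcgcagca
Cxcr4, chr1:128592300-128592549, minus strand: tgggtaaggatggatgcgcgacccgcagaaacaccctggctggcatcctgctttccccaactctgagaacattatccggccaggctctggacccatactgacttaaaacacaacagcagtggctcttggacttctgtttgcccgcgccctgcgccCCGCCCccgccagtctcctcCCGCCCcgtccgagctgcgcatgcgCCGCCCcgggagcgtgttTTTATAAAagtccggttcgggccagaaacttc
The capitals mark matches on either strand to 5 motifs. The letters GCCNNNGGC stand for a site of the TFAP2 family, to which the PGC factor TFAP2C belongs. GGGCGG is known as the GC box, bound by SP1. The start motif TATAAA is known as the TATA box. Also searched were the E-box, with the letters CACGTG, and the octamer motif bound by OCT4, with the letters ATGCAAAT. The TFAP2 letters occurred 1 time in Nanos3 and 1 time in Kit, where the Nanos3 match overlaps a GC box, and were found in 13.7% of all 32851 promoters of this length. The GC box matched 1 time in Nanos3, 1 time in Kit, 3 times in Kitl, 3 times in Cxcr4 and 5 times in Cxcl12, against 32.7% of promoters with any match. TATAAA matched 1 time in Kitl and 2 times, overlapping, in Cxcr4, against 12.4% of promoters. The E-box and the octamer, found in 6.02% and 1.60% of promoters, had no match in these 5 windows. A match is a run of letters and not a shown binding site.

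Terc was listed at 0 in all 4 ST libraries. It was 0.921 and 1.70 TPM in LT-1dEB, 3.35 and 1.75 TPM in RT-1dEB, 2.35 and 5.39 TPM in LT-1dMeioLC, 3.08 and 0.699 TPM in RT-1dMeioLC, and 0.945 and 0.974 TPM in E10.5PGC. The 2 PGC-1dMeioLC libraries were listed at 0 as well, although their label names no Terc deletion. Germ cell markers summed to 3885 and 3871 TPM in E10.5PGC, where 12 of 13 reached 1 TPM. The RT-1dEB libraries stood apart from the rest: nuclear protein-coding genes took 28.1% ± 1.38 (SD, n = 2) of their TPM, against 38.7% in LT-1dEB, 44.2% in ST-1dEB and 54.2% to 61.1% in the other groups, and mitochondrial rRNA took 12.8%. Every TPM of a library falls when such RNA takes more of the total, so results are also given on a second scale on which the protein-coding total is equal in all 16 libraries, called protein-coding scaling below. Reads per library are unknown, because TPM keeps no depth.

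Levels and their order are given first on the deposited scale. Nanos3 was at its highest in the embryonic PGCs, at 299.6 and 312 TPM. It was 3.58 and 6.03 TPM in LT-1dEB, 11.9 and 15.4 TPM in ST-1dEB, and 13.7 and 14.8 TPM in RT-1dEB. It was 50.9 and 54.3 TPM in LT-1dMeioLC, 38.1 and 36.8 TPM in ST-1dMeioLC, 61.8 and 63.7 TPM in RT-1dMeioLC, and 40.8 and 45.4 TPM in PGC-1dMeioLC. The order from high to low was E10.5PGC, RT-1dMeioLC, LT-1dMeioLC, PGC-1dMeioLC, ST-1dMeioLC, RT-1dEB, ST-1dEB and LT-1dEB, and of the neighbours in it RT-1dEB and ST-1dEB alone overlapped on the deposited scale. The highest group mean was 63.5 times the lowest.

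Dnd1 lies on chromosome 18 from 36763671 to 36766214 on the minus strand, and its end overlaps Wdr55 on the plus strand by 140 bases. No source used here says whether counting used strand, so reads in that overlap cannot be assigned to 1 gene with certainty. Dnd1 was also highest in the embryonic PGCs, at 68.4 and 73.1 TPM. It was 11.8 and 9.32 TPM in LT-1dEB, 7.71 and 7.03 TPM in ST-1dEB, and 6.47 and 7.81 TPM in RT-1dEB. It was 10.8 and 12.6 TPM in LT-1dMeioLC, 4.38 and 3.41 TPM in ST-1dMeioLC, 8.43 and 8.95 TPM in RT-1dMeioLC, and 17.7 and 16.7 TPM in PGC-1dMeioLC. ST-1dMeioLC was the lowest group and stood below every other library, while LT-1dMeioLC overlapped LT-1dEB, and ST-1dEB overlapped RT-1dEB. Its overlapping neighbour Wdr55, a gene of ribosome production, went from 11.1 TPM in RT-1dMeioLC replicate 1 to 57.4 TPM in E10.5PGC replicate 1.

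Kit was low in embryoid bodies and higher in all other groups. It was 2.93 and 2.28 TPM in LT-1dEB, 2.00 and 1.76 TPM in ST-1dEB, and 2.23 and 2.32 TPM in RT-1dEB. It was 15.2 and 14.1 TPM in LT-1dMeioLC, 8.69 and 9.32 TPM in ST-1dMeioLC, 13.4 and 12.7 TPM in RT-1dMeioLC, 19.3 and 19.9 TPM in E10.5PGC, and 15.3 and 16.4 TPM in PGC-1dMeioLC. All 10 libraries of the later stages were above all 6 of the embryoid bodies, and ST-1dMeioLC was the lowest of the 5 later groups. LT-1dEB overlapped RT-1dEB, and the highest group mean was 10.4 times the lowest.

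Kitl followed another order, with the cultured cells on top. It was 0.396 and 0.456 TPM in LT-1dEB, 1.19 and 1.25 TPM in ST-1dEB, and 0.360 and 0.469 TPM in RT-1dEB. It was 21.7 and 21.2 TPM in LT-1dMeioLC, 11.7 and 14.00 TPM in ST-1dMeioLC, 16.4 and 15.9 TPM in RT-1dMeioLC, 2.61 TPM in both E10.5PGC libraries, and 29.6 and 28.3 TPM in PGC-1dMeioLC. All 8 1dMeioLC libraries were above all others, and among neighbouring groups LT-1dEB and RT-1dEB alone overlapped. The highest group mean was 69.9 times the lowest.

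Cxcr4 spanned the widest range of the 6 genes, its highest group mean being 149.8 times its lowest. It was 0.647 and 0.298 TPM in LT-1dEB, 0.866 and 0.815 TPM in ST-1dEB, and 0.261 and 0.409 TPM in RT-1dEB. It was 8.98 and 11.7 TPM in LT-1dMeioLC, 4.13 and 6.98 TPM in ST-1dMeioLC, 2.74 and 2.62 TPM in RT-1dMeioLC, 51.7 and 48.6 TPM in E10.5PGC, and 7.75 and 8.37 TPM in PGC-1dMeioLC. The embryoid bodies were all below 1 TPM, E10.5PGC was above every other library, and LT-1dEB overlapped RT-1dEB.

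Cxcl12 moved least, by 2.84 times between the highest and the lowest group mean. It was 1.53 and 1.87 TPM in LT-1dEB, 3.47 and 2.85 TPM in ST-1dEB, and 1.87 and 2.17 TPM in RT-1dEB. It was 1.11 and 1.12 TPM in LT-1dMeioLC, 1.56 and 1.76 TPM in ST-1dMeioLC, 1.43 and 0.832 TPM in RT-1dMeioLC, 1.27 and 1.44 TPM in E10.5PGC, and 2.22 and 1.85 TPM in PGC-1dMeioLC. On the deposited scale ST-1dEB was above every other library, and most other neighbouring groups overlapped. On protein-coding scaling RT-1dEB, with a mean of 3.62, overlapped ST-1dEB, also with a mean of 3.62.

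**Figure D1:**
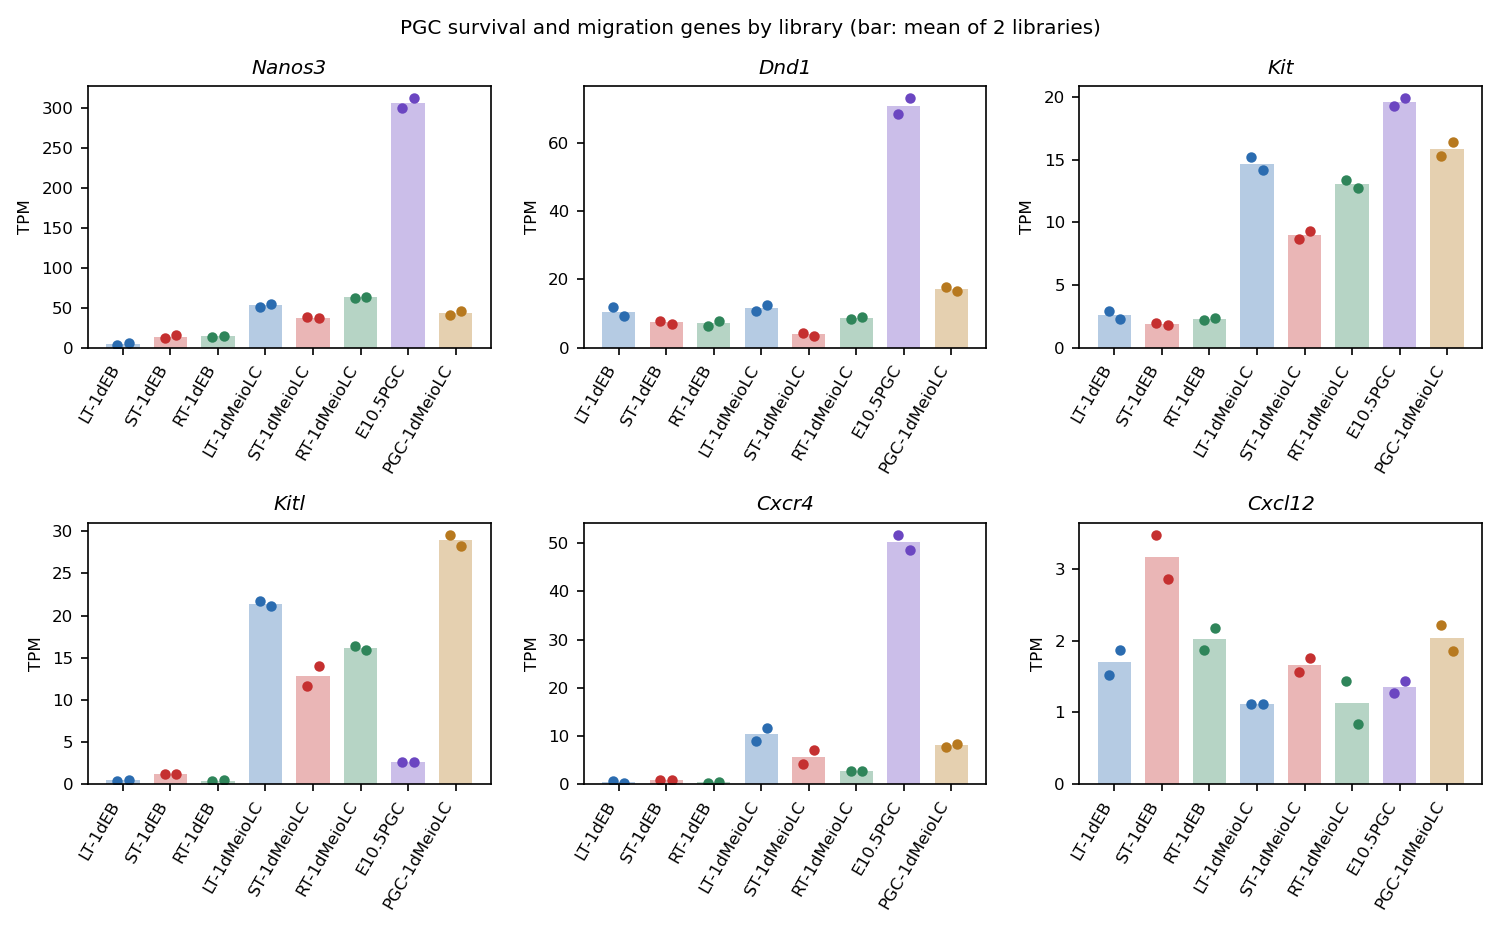
Deposited TPM of the 6 genes in each of the 16 libraries (points), with group means (bars from 0), 2 libraries per group and 1 panel per gene. Nanos3, Dnd1 and Cxcr4 peak in E10.5PGC, Kitl in the 1dMeioLC groups and Cxcl12 in ST-1dEB.

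The balance of receptor and ligand differed between stages. A ratio within a library is the same on the deposited scale and on protein-coding scaling, which multiplies all its TPM alike. Quantile normalization can change it. Kit was above Kitl in all 6 embryoid body libraries, by 1.42 to 7.41 times, and in both E10.5PGC libraries, by 7.39 and 7.62 times. In all 8 1dMeioLC libraries Kitl was the higher of the pair, with a Kit to Kitl ratio of 0.519 to 0.817. Among embryoid bodies the ST libraries had the lowest ratios, 1.68 and 1.42, against 4.95 to 7.41 in LT and RT. Cxcr4 was below Cxcl12 in all 6 embryoid body libraries, with ratios of 0.140 to 0.424, and above it in the others, by 1.91 times or more in 1dMeioLC and by 33.9 and 40.7 times in E10.5PGC. The embryoid body ratios rest on low values, with Kitl at most 0.469 TPM in LT and RT and Cxcr4 at most 0.866 TPM. All these ratios are of transcripts in bulk RNA, where fewer cells of a type and less RNA per cell cannot be told apart.

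**Figure D2:**
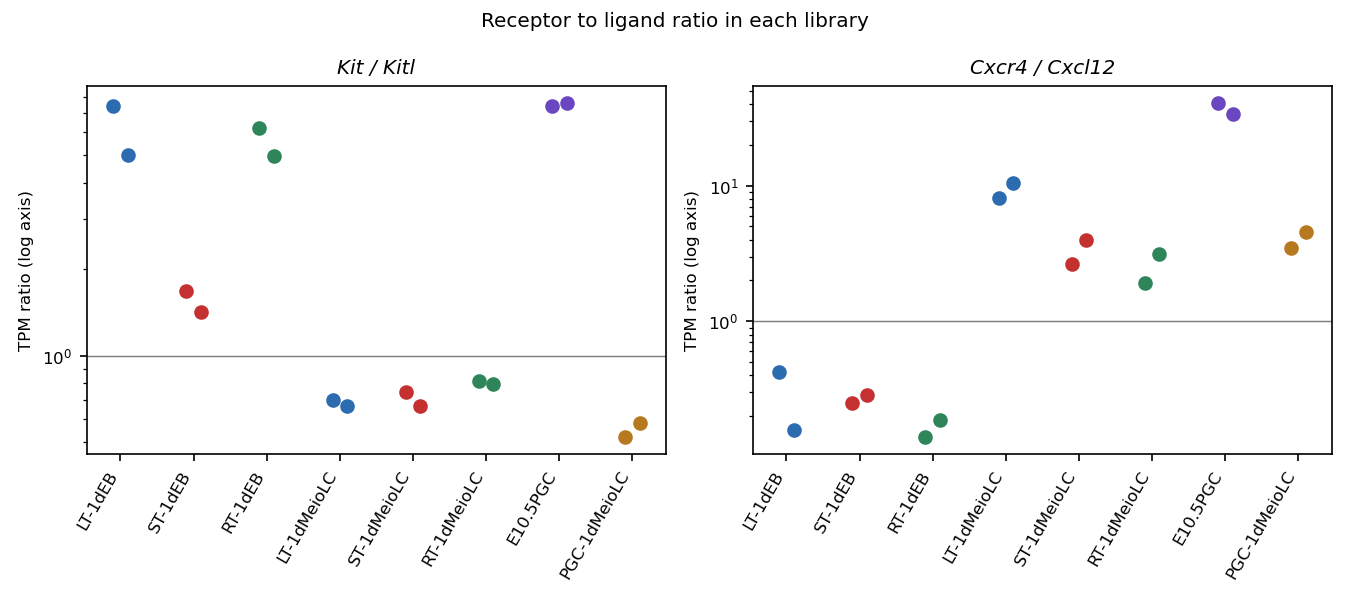
Ratio of receptor to ligand TPM on a log axis, Kit to Kitl on the left and Cxcr4 to Cxcl12 on the right, 1 point per library and 2 libraries per group, with a line at equal levels. The Kit to Kitl ratio is below 1 in the 8 1dMeioLC libraries alone, and the Cxcr4 to Cxcl12 ratio is below 1 in the 6 embryoid body libraries alone.

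The first question was how the lines differed after 1 day of induction. In ST against LT embryoid bodies, 5 of the 6 genes differed: Nanos3, Kitl and Cxcl12 were higher in ST, and Dnd1 and Kit were lower. Across all 21935 genes tested, 38.4% differed in this comparison. All 6 members had passed the filter of 1 TPM in at least 2 of the 16 libraries. Cxcr4, below 1 TPM in every embryoid body library, passed it only through the other groups. Nanos3 was 2.84 times as high in ST by group means, a log2 fold change of 1.36 ± 0.17 (SE) with an adjusted p of 9.5e-05 by limma. Kitl rose by 0.64 ± 0.09 (limma adjusted p = 0.00025) and Cxcl12 by 0.63 ± 0.15 (limma adjusted p = 0.0078). Fold changes here and below are on the scale of log2(TPM + 1), which understates the change of low genes such as Kitl, whose group means differed 2.86 times. Dnd1 fell by 0.46 ± 0.13 (limma adjusted p = 0.020) and Kit by 0.32 ± 0.10 (limma adjusted p = 0.023). Cxcr4 did not pass the test, with a log2 difference of 0.33 and a 95% interval from -0.11 to 0.77. The libraries of the 2 groups did not overlap for any of the 6 genes, Cxcr4 included. The share of all genes without overlap was not counted, so this adds no support to the calls. The calls of Dnd1 and Kit were lost without LT-1dEB replicate 1 (limma adjusted p = 0.16 and 0.19) or ST-1dEB replicate 2 (0.11 and 0.13), and that of Cxcl12 without LT-1dEB replicate 1 (0.060) or ST-1dEB replicate 1 (0.062). With the 2 groups fitted alone, the limma adjusted p was 0.069 for Dnd1, 0.20 for Kit and 0.058 for Kitl, and quantile normalization gave 0.093 for Cxcl12.

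Rescue of Terc was compared with the knockout at the same stage. On the deposited scale Kitl fell from ST to RT by 0.65 ± 0.09 (limma adjusted p = 0.00015), with RT overlapping LT, and Cxcl12 fell by 0.46 ± 0.15 (limma adjusted p = 0.027). These were the only 2 of 6 calls, where 49.7% of all genes were called and the median log2 change of all genes was -0.38. On protein-coding scaling, where that median was 0.04 and 37.1% of genes were called, Kitl was again lower, by 0.46, and Nanos3, Dnd1 and Kit were higher by 0.69, 0.55 and 0.69 (limma adjusted p = 0.010, 0.0066 and 0.00036), while Cxcl12 differed by 0.01 and was not called. Quantile normalization called the same 4 genes in those directions. Kitl was thus called lower on all 3 scales, whereas the calls of Nanos3, Dnd1, Kit and Cxcl12 depended on the scale, and the log2 differences of Dnd1 and Cxcl12 turned sign on protein-coding scaling. Cxcr4 did not pass on either scale, and passed with a pseudocount of 0.1 (log2 change -1.13, limma adjusted p = 0.013). The Cxcl12 call was also lost without ST-1dEB replicate 1 (limma adjusted p = 0.16) or RT-1dEB replicate 1 (0.15).

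Against LT embryoid bodies, with the same RT and LT libraries as above, 2 of 6 genes were called in RT, where 41.6% of all genes were. Nanos3 was higher by 1.42 ± 0.17 (limma adjusted p = 6.9e-05), on each of the 3 scales. Dnd1 was lower by 0.50 ± 0.13 (limma adjusted p = 0.012), a call that was lost on protein-coding scaling (log2 change -0.09), and without LT-1dEB replicate 1 (limma adjusted p = 0.10) or RT-1dEB replicate 1 (0.097). Kitl differed by -0.01, with a 95% interval from -0.22 to 0.19. Cxcl12 was not called on the deposited scale and was called higher on protein-coding scaling, by 0.53 (limma adjusted p = 0.016).

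In meiocyte-like cells Kitl was lower in ST than in LT, where it had been higher in embryoid bodies. In ST against LT, Dnd1, Kit, Kitl and Cxcr4 fell and no member rose, where 35.1% of all genes were called. Dnd1 fell most, by 1.38 ± 0.13 (limma adjusted p = 4.7e-05), its group means differing 3.00 times. Kit fell by 0.65 ± 0.10 (limma adjusted p = 0.00062) and Kitl by 0.70 ± 0.09 (limma adjusted p = 0.00028). Cxcr4 fell by 0.82 ± 0.20 (limma adjusted p = 0.0091). Nanos3 was at 37.5 TPM ± 0.869 (SD, n = 2) against 52.6 TPM ± 2.38 (SD, n = 2) and lay just outside the threshold, with a log2 difference of -0.48 and a limma adjusted p of 0.0503. Cxcl12 differed by 0.33, with a 95% interval from -0.01 to 0.67. The libraries did not overlap for any of the 6 genes, those not called included. Here too the share of all genes without overlap was not counted, so this adds no support to the calls. The Cxcr4 call was lost without LT-1dMeioLC replicate 2 (limma adjusted p = 0.080) or ST-1dMeioLC replicate 1 (0.065), and the fit of the 2 groups alone gave 0.087 for Cxcr4 and 0.013 for Nanos3.

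In RT against ST meiocyte-like cells, Nanos3, Dnd1, Kit and Kitl were higher and Cxcr4 was lower, where 33.3% of all genes were called. Dnd1 rose by 0.99 ± 0.13 (limma adjusted p = 0.00039), Nanos3 by 0.73 ± 0.17 (limma adjusted p = 0.0079) and Kit by 0.49 ± 0.10 (limma adjusted p = 0.0032). Kitl rose by 0.31 ± 0.09 (limma adjusted p = 0.023), and protein-coding scaling lost that call (0.098), as did leaving out ST replicate 1 (0.17), RT replicate 1 (0.097) or RT replicate 2 (0.065). Cxcr4, lower in ST than in LT, was lower still in RT, by 0.80 ± 0.20 (limma adjusted p = 0.011), a call that was lost without ST-1dMeioLC replicate 2 (0.074) or RT-1dMeioLC replicate 2 (0.051). In RT against LT, which share those libraries with the comparisons above, 2 of 6 genes were called where 18.6% of all were. Cxcr4 was lower in RT by 1.61 ± 0.20 (limma adjusted p = 0.00053), 3.86 times by group means. Kitl was lower by 0.39 ± 0.09 (limma adjusted p = 0.016), and that call was lost on leaving out any of the 4 libraries (limma adjusted p = 0.054 to 0.084). Dnd1 differed by -0.38 (limma adjusted p = 0.074) and Kit by -0.16 (95% interval from -0.37 to 0.06).

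**Figure D3:**
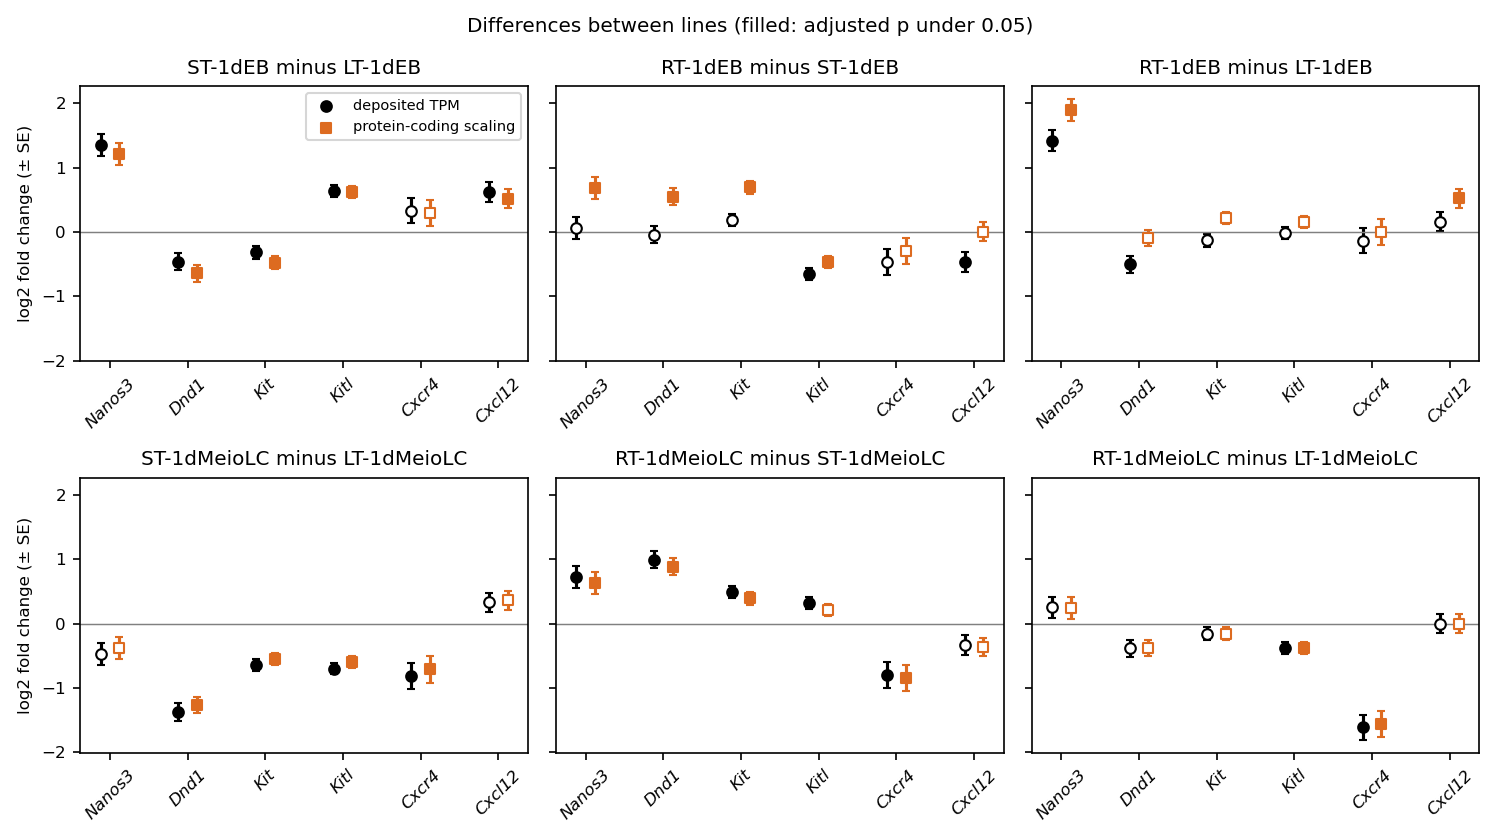
Log2 fold change (± SE) of the 6 genes between lines, embryoid bodies above and meiocyte-like cells below, on deposited TPM (circles) and on protein-coding scaling (squares), with 2 libraries per group and filled symbols at a limma adjusted p under 0.05. The 2 scales differ most for RT-1dEB minus ST-1dEB, and the fall of Dnd1 and Cxcr4 in the lower left panel is called on both.

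The difference between ST and LT itself differed between stages for 4 of the 6 genes, where 38.6% of all genes did, in a test of the interaction. From 1dEB to 1dMeioLC the ST minus LT difference of Nanos3 moved by -1.83 ± 0.24 (limma adjusted p = 0.00020), that of Kitl by -1.34 ± 0.13 (limma adjusted p = 2.6e-05), that of Cxcr4 by -1.15 ± 0.28 (limma adjusted p = 0.0083) and that of Dnd1 by -0.92 ± 0.19 (limma adjusted p = 0.0034). Kitl was thus above LT in ST embryoid bodies and below LT in ST meiocyte-like cells, while Nanos3 was above LT in the former and did not pass the test in the latter. For RT minus ST, 3 of 6 genes were called where 42.2% of all were: Dnd1 by 1.04, Kitl by 0.97 and Nanos3 by 0.66. On protein-coding scaling, where 36% of all genes were called, Kitl alone of the 6 was, by 0.68 (limma adjusted p = 0.0029), with Nanos3 at -0.06 and Dnd1 at 0.34.

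From embryoid body to meiocyte-like cell, Nanos3, Kit, Kitl and Cxcr4 rose in each line on each of the 3 scales. The stages differ in time, medium, the cells cultured alongside and sort together, which cannot be told apart. Nanos3 rose by 3.24 in LT, 1.40 in ST and 2.07 in RT, Kitl by 3.98, 2.64 and 3.60, and Cxcr4 by 2.95, 1.80 and 1.46. Kit rose by 2.13, 1.80 and 2.10. All these had limma adjusted p of at most 6.3e-05. On protein-coding scaling the rises in LT, ST and RT were 2.66, 1.06 and 1.00 for Nanos3, 1.59, 1.52 and 1.22 for Kit, 3.60, 2.38 and 3.05 for Kitl, and 2.58, 1.57 and 1.02 for Cxcr4, so that the sizes, though not the directions, depended on the scale, most of all in RT for Nanos3. Of all genes, 64.5% were called in either direction in LT, 62.9% in ST and 65.7% in RT. Of 12 gonadal somatic markers, described below, 11 were called higher in LT, 11 in ST (1 lower) and 12 in RT. Their part in the rise of Kitl was not tested. Dnd1 fell in ST, by 0.78 ± 0.13 (limma adjusted p = 0.00044), and differed by 0.14 in LT and 0.26 in RT without passing, and on protein-coding scaling it was lower in all 3 lines, by 0.46 in LT, 1.08 in ST and 0.74 in RT. Cxcl12 fell in ST by 0.64 and in RT by 0.51, and on protein-coding scaling in LT as well. The RT call of Cxcl12 was lost without RT-1dEB replicate 2 (limma adjusted p = 0.078) or RT-1dMeioLC replicate 2 (0.12).

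PGC-1dMeioLC, after 1 day of culture with gonadal somatic cells and retinoic acid, differed from E10.5PGC in 5 of the 6 genes. Of all genes, 53.6% did. Time, medium, the cells cultured alongside and any sort after the culture cannot be told apart here. Nanos3 fell by 2.80 ± 0.17 (limma adjusted p = 2.4e-07), 7.09 times by group means. Cxcr4 fell by 2.50 ± 0.20 (limma adjusted p = 1.8e-06) and Dnd1 by 1.98 ± 0.13 (limma adjusted p = 5.8e-07). Kitl rose by 3.05 ± 0.09 (limma adjusted p = 1.7e-09), 11.1 times by group means. Kit fell by 0.29 ± 0.10 (limma adjusted p = 0.026), and this call was lost on protein-coding scaling (0.32) and without either E10.5PGC library or PGC-1dMeioLC replicate 1 (0.070 to 0.13). Cxcl12 differed by 0.37 (limma adjusted p = 0.067) and was called higher on protein-coding scaling (0.024).

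The meiocyte-like cells of each ESC line were set against those from embryonic PGCs, the same 2 PGC-1dMeioLC libraries serving all 3 comparisons. LT was lower in 3 of 6 genes, where 21.7% of all genes were called: Dnd1 by 0.53, Kitl by 0.42 and Cxcl12 by 0.52 (limma adjusted p = 0.019, 0.0095 and 0.036). ST was lower in 3, where 41.8% of all genes were called: Dnd1 by 1.90, Kitl by 1.12 and Kit by 0.75 (limma adjusted p = 2.8e-06, 7.5e-06 and 0.00015). RT was called in 5, where 31.4% of all genes were: Dnd1 fell by 0.91, Kitl by 0.80, Cxcr4 by 1.30 and Cxcl12 by 0.52, and Nanos3 was higher by 0.53 (limma adjusted p = 0.00061, 0.00011, 0.00073, 0.026 and 0.036). Dnd1 and Kitl were therefore below the PGC-derived cells in all 3 lines. Leaving out single libraries lost the LT calls of Dnd1 (3 of 4 libraries, limma adjusted p = 0.059 to 0.12), Kitl (2 of 4, 0.062 and 0.066) and Cxcl12 (all 4), and the RT calls of Nanos3 (all 4) and Cxcl12 (2 of 4). Protein-coding scaling lost the RT call of Nanos3 (0.12) and added Kit as lower in RT (log2 change -0.41, limma adjusted p = 0.0087).

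Markers of other cell types moved with several of these results. Gonadal somatic markers, 12 genes that include Wt1, Gata4 and Nr5a1, summed to 28.9 and 31.2 TPM in E10.5PGC, where Foxl2 was at 0, and to 348 and 342 TPM in PGC-1dMeioLC, where all 12 were called higher, against 34.7% of all genes called higher and 18.9% called lower. The sum was thus higher after culture beside the rise of Kitl, a ligand that gonadal somatic cells are known to make, and its part in the result was not tested. Between the lines it was 411 and 394 TPM in ST-1dMeioLC, where Kitl was the lowest of the 1dMeioLC groups, 312 and 319 TPM in LT-1dMeioLC and 236 and 235 TPM in RT-1dMeioLC. In embryoid bodies it was 45.7 and 45.5 TPM in ST, where Kitl was the highest, 23.6 and 26.4 TPM in LT, and 17.3 and 16.1 TPM in RT, and Kitl overlapped between the last 2. Fst, Wnt4 and Wt1 had the largest called changes of the list in ST-1dMeioLC, at -1.79, 0.96 and 0.77.

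Stromal markers, 16 genes such as Col1a1, Dcn and Postn, summed to 697 and 695 TPM in ST-1dEB, 56.4 and 60.1 TPM in LT-1dEB, and 238 and 263 TPM in RT-1dEB, beside the higher Kitl and Cxcl12 of ST-1dEB. Of the 16, 15 were called higher in ST than LT, where 26.7% of all genes were called higher. Among them were Mgp by 4.60, Col1a1 by 4.60 and Dcn by 4.06, and the part of these markers in the Kitl and Cxcl12 results was not tested. The sum was 416 to 489 TPM in the 1dMeioLC libraries and 16.5 and 17.9 TPM in E10.5PGC, where Mgp was at 0. In ST-1dMeioLC, where Thy1 was at 0, 5 of the 16 were higher than in LT and 5 lower, against 17.4% and 17.7% of all genes. Pdgfra was at 1.16, Dcn at -1.37 and Tagln at -1.35.

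Germ cell markers, 13 genes that include the sort antigen Itgb3, summed to 1097 and 1045 TPM in LT-1dMeioLC, 316 and 328 TPM in ST-1dMeioLC, 799.8 and 767 TPM in RT-1dMeioLC, and 1135 and 1142 TPM in PGC-1dMeioLC. The sum was lowest in ST-1dMeioLC, where Dnd1, Kit and Nanos3 were also the lowest of the 1dMeioLC groups, and the part of germ cell content in those results was not tested. Dppa3 and Dazl together made up 873 and 834 TPM of it in LT, 108 and 118 in ST, 599 and 562 in RT and 877 and 894 in PGC-1dMeioLC. The other 11 genes, a split made after the values were seen, summed to 224 and 211 TPM in LT, 208 and 210.0 in ST, 201 and 205 in RT and 258 and 249 in PGC-1dMeioLC. That sum holds changes in both directions. Nanog was at 29.6 and 26.3 TPM in LT and 76.5 and 71.6 TPM in ST, and Sall4 at 95.4 and 92.2 TPM against 49.5 and 46.2 TPM. Neither sum measures germ cell content. Of the 13, 5 fell and 5 rose in ST against LT meiocyte-like cells, where 17.7% of all genes were called lower and 17.4% higher. Dppa3 was at -4.11, Ddx4 at -2.38 and Dazl at -2.02. The genes that rose, named after their values were seen, were the pluripotency factors Nanog, Pou5f1 and Sox2 at 1.38, 1.34 and 0.35, the PGC factor Prdm14 at 0.84, and the alkaline phosphatase Alpl at 0.63. In embryoid bodies the sum was 489 and 490.0 TPM in LT, 407 and 403 TPM in ST, and 326 and 365 TPM in RT, with Itgb3 higher in ST by 3.11 and Dppa3 and Nanog lower by 1.17 and 0.89. Blood and endothelial markers summed to 441 to 1490 TPM in the 1dMeioLC and E10.5PGC libraries, mostly the globin Hba-a1, and to 10.6 to 28.2 TPM in the embryoid bodies, where Hba-a1 was at most 1.21 TPM. Cdh5 and Emcn, which mark endothelium, were at 0 in ST-1dMeioLC. Of the 10 tested, 3 fell and 0 rose in ST-1dMeioLC against LT (Adgre1, Cdh5 and Cd34), where 17.7% of all genes were called lower. Cxcr4 was lower there too, and lower still in RT-1dMeioLC. In RT against ST, 3 of the 10 were called higher and 1 lower, where 33.3% of all genes were called in either direction. In RT, Adgre1 was at 2.73 and 2.19 TPM, against 0.271 TPM in both ST libraries. Cdh5 was at 0.868 and 0.844 TPM in RT, and Cd34 at 1.00 and 0.811 TPM, against 0.422 and 0.322 TPM in ST. Hba-a1 went the other way, at 685 and 696 TPM in RT against 1465 and 1468 TPM in ST. The part of these markers in the Cxcr4 values was not tested. In embryoid bodies 3 of 10 rose in ST, a share near the 26.7% of all genes called higher, with Runx1 at 2.99, Hba-a1 at 0.67 and Cd34 at 0.39.

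**Figure D4:**
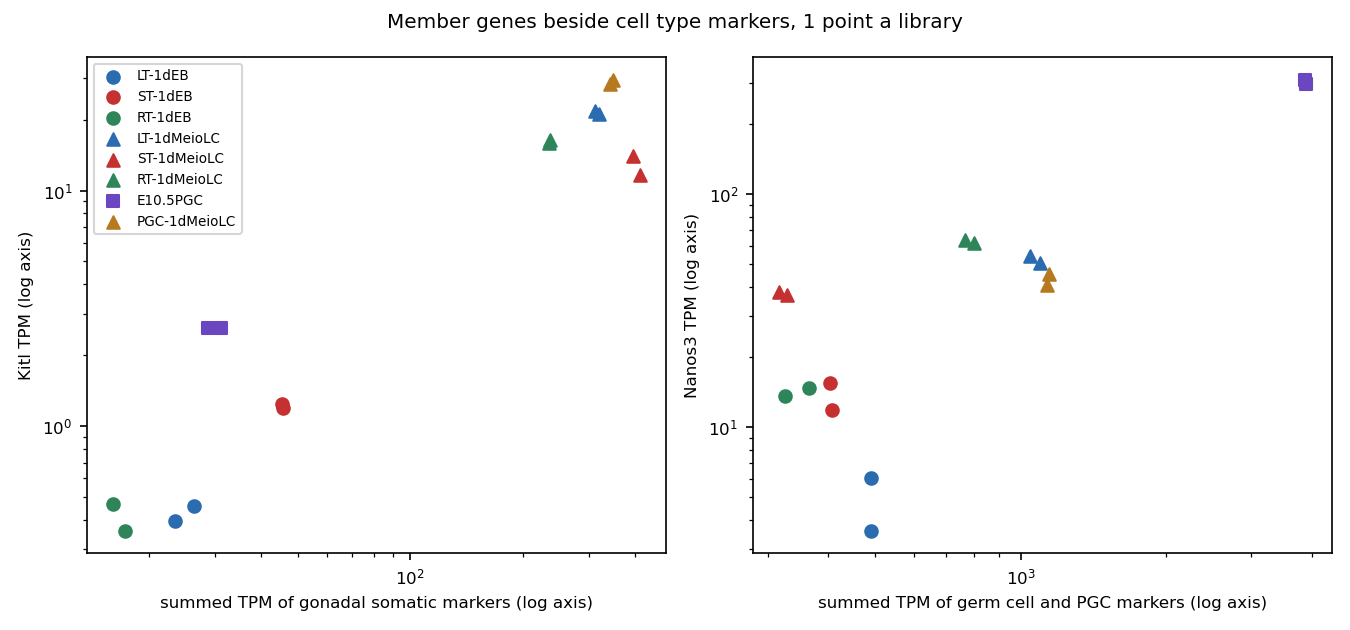
Kitl TPM against the summed TPM of 12 gonadal somatic markers (left) and Nanos3 TPM against the summed TPM of 13 germ cell markers (right), on log axes, 1 point per library. The ST-1dMeioLC libraries have the highest gonadal somatic sums, 411 and 394 TPM, with the lowest Kitl of the 1dMeioLC groups.

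Genes that act with the 6 members were followed in ST against LT, in 5 lists. At 1dEB, 26.7% of all genes were higher and 11.6% lower, with a median log2 change of 0.10, and at 1dMeioLC 17.4% were higher and 17.7% lower, with a median of 0.00. Of 26 genes of Kit signalling, 19 were higher and 2 lower in ST embryoid bodies, with a median of 0.58. Among them were Akt1, a kinase downstream of PI3K, at 1.76, Lyn, a Src family kinase, at 1.44, and Cblb, a ubiquitin ligase, at 1.30. At 1dMeioLC 10 were higher and 3 lower, with a median of 0.18, led by Stat5a at 1.07, Akt2 at 1.05 and the adaptor Sh2b2 at 0.84. Kit itself was lower in ST at both stages, as given above.

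Of 23 tested genes of Cxcr4 signalling, 14 were higher and 5 lower in ST embryoid bodies, with a median of 0.39. Rgs16, which damps G protein signals, was at 1.77, Ackr3, the second receptor of Cxcl12 and a scavenger of it, at 1.42, and the arrestin Arrb2 at -1.11. At 1dMeioLC 3 were higher and 6 lower, with a median of -0.02. Rac2, a GTPase of blood cells, was at -1.74, Ackr3 at 1.16 and Gnai2, the inhibitory G protein subunit, at 0.97. Ackr3 was thus higher in ST at both stages.

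Of 16 genes of PGC adhesion and migration, 9 were higher and 6 lower in ST embryoid bodies, with a median of 1.08, and Wnt5a, a ligand for the receptor Ror2 in PGC movement, Itgb3 and fibronectin (Fn1) were at 3.34, 3.11 and 2.03. At 1dMeioLC 3 were higher and 5 lower, with a median of -0.03, and Ifitm1 was at -0.76, E-cadherin (Cdh1) at 0.74 and Fgfr1 at 0.72. Of 14 apoptosis genes, 7 were higher and 4 lower in ST embryoid bodies, with a median of 0.40, and 7 higher and 2 lower in meiocyte-like cells, with a median of 0.36. In embryoid bodies the list was led by Bad, Bcl2l1 and Bak1 at 1.59, 1.31 and 1.07, where Bad and Bak1 promote and Bcl2l1 opposes cell death. In meiocyte-like cells Pmaip1 and Trp53, both known to promote death, were at 0.97 and 0.88. Of 16 tested partners of Nanos3 and Dnd1 (deadenylase subunits and RNA-binding proteins), 4 were higher and 3 lower in embryoid bodies, with Lin28a at -0.47, Tial1 at 0.47 and Cnot6 at -0.41, and 4 higher and 2 lower in meiocyte-like cells, with Cnot3 at 0.63, Lin28a at -0.45 and Cnot10 at 0.44. On protein-coding scaling, where 41.5% of all genes were called at 1dEB and 34% at 1dMeioLC, the partners at 1dEB were 1 higher and 4 lower, Kit signalling 15 higher and 2 lower, Cxcr4 signalling 11 higher and 5 lower, adhesion 9 and 6, and apoptosis 5 and 5. At 1dMeioLC on that scale these lists had 7 higher and 1 lower, 13 and 2, 4 and 4, 3 and 3, and 9 and 1.

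**Figure D5:**
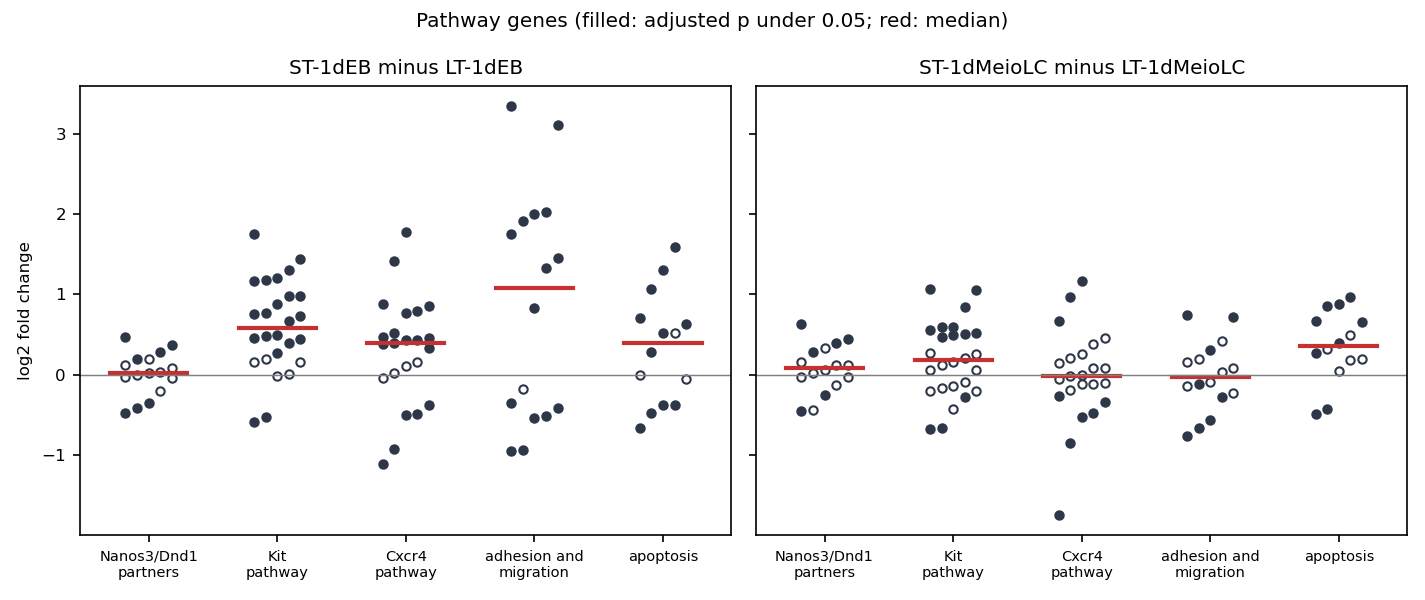
Log2 fold change of each tested gene of the 5 lists in ST against LT, embryoid bodies on the left and meiocyte-like cells on the right, from deposited TPM with 2 libraries per group. Filled points have a limma adjusted p under 0.05 and the line is the list's median, which for Kit signalling is 0.58 on the left and 0.18 on the right.

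The 6 genes varied together in part. Across the 16 libraries, which share the 8 groups, Pearson's r of log2(TPM + 1) was 0.908 between Nanos3 and Cxcr4, 0.871 between Kit and Cxcr4, 0.857 between Nanos3 and Kit, and 0.788 between Kit and Kitl, but -0.03 between Dnd1 and Kitl. Cxcl12 had a negative r with each of the other 5, from -0.65 with Kit to -0.26 with Dnd1. Among 8088 genes with a mean of at least 5 TPM, the most alike in pattern by r over these 16 libraries were Ckap2 (0.969), Mir8114 (0.950) and Rpl39l (0.944) for Nanos3, and Sall4 (0.988), Cep89 (0.977) and Anapc15 (0.963) for Dnd1. For Kit they were Rhox2a (0.997), Stk31 (0.995) and Ube2t (0.993), for Kitl Pam (0.992), Arhgap29 (0.988) and Yod1 (0.988), and for Cxcr4 Nudc-ps1 (0.979), Ndufaf4 (0.965) and Rtca (0.961). For Cxcl12, among 8089 genes, they were Cotl1 (0.923), Por (0.895) and Myh9 (0.876). These are descriptions over libraries that fall into stages, and no test was made.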

How the data were processed

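RNA sequencing libraries (NEBNext Ultra kit, per the labels' protocols) were quantified by the authors, who deposited TPM per gene with the replicates kept apart; Bowtie2, HISAT2, RSEM, R 3.4.2, DESeq2 and the build mm10 are named, without role or order, in the submitters' processing notes. Depth per library is not given by TPM. Of the table's 28 columns, 16 with unique names were used, and 12 columns under 6 repeated names were not used here. Groups follow the labels.

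From the deposited TPM, limma 3.58.1 (R 4.3.3) was fitted to log2(TPM + 1) of the 21935 genes that reached 1 TPM in 2 or more of the 16 libraries, with 1 mean per group, a mean-variance trend, 8 residual degrees of freedom and Benjamini-Hochberg adjustment over all genes; tests were two-sided with a threshold of 0.05 and tested on simulated data. Alternatives were a pseudocount of 0.1, no filter, protein-coding scaling, quantile normalization, a replicate block, the compared groups alone, each library left out, and, chosen after seeing the data, a fit without RT-1dEB. Replicate numbers were not found to pair samples. The members, marker lists and pathway lists were chosen with earlier results of these data known. The text names the 6 members, up to 3 genes of each list with the largest called change in each ST against LT comparison, the 3 genes most alike to each member, and Terc; some values of single list genes are not reported here.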

Additional observations from a re-analysis of the deposited data

Results flagged for a closer look

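The difference between lines changed with stage, by a limma test of the interaction, for 4 of 6 members in ST against LT and 3 of 6 in RT against ST. Of all genes, 38.6% and 42.2% were called in these 2 tests, so the counts do not set the members apart. The ST minus LT difference moved from 1dEB to 1dMeioLC by -1.83 for Nanos3, -0.92 for Dnd1, -1.34 for Kitl and -1.15 for Cxcr4 (log2 scale, adjusted p = 0.00020, 0.0034, 2.6e-05 and 0.0083), each in libraries of 2 per group. The RT minus ST difference moved by 0.66 for Nanos3, 1.04 for Dnd1 and 0.97 for Kitl (limma adjusted p = 0.047, 0.0015 and 0.00019). The RT minus ST values for Nanos3 and Dnd1 were not called on protein-coding scaling, and that of Nanos3 was not called without 7 of the 8 single libraries. The RT-1dEB libraries of these last 3 are the ones with 12.8% mitochondrial rRNA, and its part in the values was not tested.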

How the results depend on the processing

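Depth is unknown, and 2 libraries per group limit every call. Of the 602 member values under alternatives other than leaving out a library, 543 kept direction and side of the threshold, and 17 turned direction. The rest kept direction, and of them 30 lost and 12 gained a call. Calls lost or gained among the 17 that turned are not in these 2 counts. No filter, the replicate block, the compared groups alone and the fit without RT-1dEB keep each fold change by construction. Direction was fixed in advance there and only the call could change, so the 543 overstate how stable direction was. On protein-coding scaling the values that turned were, for RT minus ST at 1dEB, Dnd1 0.55 and Cxcl12 0.0055, for RT minus LT at 1dEB, Kit 0.22 and Kitl 0.16, for the stage change, Dnd1 -0.46 in LT and -0.74 in RT, and for the RT minus ST interaction, Nanos3 -0.063, Kit -0.30 and Cxcl12 -0.37. With quantile normalization they were Dnd1 0.60 (RT minus ST, 1dEB), Cxcl12 0.054 (RT minus LT, 1dMeioLC) and -0.17 (PGC culture), Dnd1 -0.15 and -0.25 (stage change in LT and RT), and Nanos3 -0.084 and Cxcl12 -0.19 (RT minus ST interaction). A pseudocount of 0.1 gave Cxcr4 0.15 for that interaction. The cause was not tested.

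Leaving out each library in turn gave ranges that crossed 0 for Nanos3 (-0.11 to 0.24) and Dnd1 (-0.16 to 0.076) in RT minus ST at 1dEB, Kitl (-0.068 to 0.043) and Cxcr4 (-0.30 to 0.038) in RT minus LT at 1dEB, Cxcl12 (-0.21 to 0.20) in RT minus LT at 1dMeioLC, Dnd1 (-0.018 to 0.29) in the LT stage change and Cxcl12 (-0.075 to 0.34) in the RT minus ST interaction. In these fits the lone library of a group is assumed to vary like the other groups.

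Over all genes, the fit of the compared groups alone called 4385 genes in RT minus ST at 1dMeioLC, against 7294, and 2117 in RT minus LT, against 4083. Leaving out a library called 1642 to 2578 in RT minus LT at 1dMeioLC and 2258 to 3051, against 4755, in LT minus PGC-1dMeioLC. Fewer samples enter these fits. Same-numbered libraries did not deviate together (r of -0.0336 to 0.0425 over 28 pairs of groups). No broad shared deviation was seen, which cannot exclude that they shared a culture or a day. The replicate block called 8288 genes in ST minus LT at 1dEB, against 8417, and of the members' calls it changed Nanos3 in ST minus LT at 1dMeioLC (limma adjusted p = 0.025).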

Other observations

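The globin Hba-a1 was at 765 and 770.2 TPM in the sorted E10.5PGC libraries, 1092 and 1128 TPM in LT-1dMeioLC, 1465 and 1468 TPM in ST-1dMeioLC, 685 and 696 TPM in RT-1dMeioLC and 405 and 424 TPM in PGC-1dMeioLC, and at most 1.21 TPM in the embryoid bodies. The ratio of Nanos3 to Dnd1, both RNA-binding proteins, was 0.304 and 0.647 in the LT-1dEB libraries, 1.54 to 2.19 in the other embryoid bodies, 4.38 and 4.26 in E10.5PGC, and reached 8.70 and 10.8 in ST-1dMeioLC, the highest of the 16 libraries.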
